A study of Mus musculus with 9 samples.

Results

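Adrb1, Adra1a, Adra1b, Adcy5, Adcy6, Pde3a, Pde4d and Chrm2 are 8 genes through which the heart muscle cell reads noradrenaline, adrenaline and acetylcholine. They were taken by their symbols from the deposited table of normalised read counts, where all 8 were present among 24391 genes. The table holds RNA sequencing of mouse cardiac ventricles in 3 groups of 3 libraries, all on a C57BL/6 background. In the stabilized beta-catenin group, 15-week-old mice carried alphaMHC-driven Cre recombinase and lacked exon 3 of the beta-catenin gene, which leaves a beta-catenin protein that escapes degradation. The P6 group held wild-type ventricles from postnatal day 6. The adult control group, also 15 weeks old and positive for alphaMHC Cre, was wild type for beta-catenin. The alphaMHC promoter drives Cre in cardiomyocytes, whereas whole ventricles were sequenced. Since the P6 mice are not labelled as carrying Cre and the adult libraries are labelled as re-analysed, age, Cre genotype and library set cannot be told apart in any comparison with P6. The labels do not say that the libraries of a group came from separate animals, so the p-values measure only the spread between these libraries.

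Sympathetic nerves release noradrenaline, which acts on beta1-adrenergic receptors coupled to the stimulatory G protein. Adenylyl cyclases then make cyclic AMP, protein kinase A phosphorylates calcium-handling and myofilament proteins, and phosphodiesterases break cyclic AMP down. Alpha1-adrenergic receptors use another G protein and phospholipase C. Muscarinic M2 receptors carry the parasympathetic signal, inhibiting the cyclases and opening a potassium channel.

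Reads per library came to 14965316 to 23236129 in the stabilized beta-catenin group, 7467551 to 7913057 at P6 and 15234366 to 21568022 in the adult controls. Axin2, a direct target of beta-catenin signalling, stood at 489, 670.0 and 740 normalised counts in the stabilized beta-catenin libraries, at 61.7, 57.8 and 60.9 at P6 and at 50.8, 92.0 and 88.6 in adult controls. One library stood apart. Adult control 1 differed from the rest of its group by a root-mean-square log2 distance of 0.592, against 0.316 to 0.461 for every other library within its own group. Relative to those libraries, its longest genes, the upper quintile, had a median log2 difference of -0.32 and its shortest quintile one of 0.37, so values of the 8 genes that turn on this library are given with and without it. Transcripts of Y-linked genes also differed between libraries of the same group. Their sum was 4633, 2.57 and 2742 normalised counts in stabilized beta-catenin libraries 1, 2 and 3 and 0, 0 and 2596 in P6 libraries 1, 2 and 3, and did not exceed 3.33 in any adult control. The 12 cardiomyocyte markers summed to 2676930 to 2694070 normalised counts in the stabilized beta-catenin libraries, 1546070 to 1591030 at P6 and 2188020 to 3105720 in adult controls.

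P6 ventricles differed from adult control ventricles in 3 of the 8 genes. Adra1a, Chrm2 and Pde4d were lower at P6, by 24.0-fold, 4.24-fold and 1.69-fold on the log2(normalised count + 1) scale. None of the 8 passed the test as higher. In this comparison 62.5% of the 13398 genes tested were called by limma at a Benjamini-Hochberg adjusted p under 0.05, 31.2% higher and 31.3% lower, so 3 calls among 8 genes are no more than the background share. The groups did not overlap in 4 of the 8 genes, against 70.3% of all genes tested. The median log2 fold change was -0.15 over the 8 genes and 0.02 over all genes tested.

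Adra1a encodes the alpha1A-adrenergic receptor. It had 633, 249.9 and 299 normalised counts in the stabilized beta-catenin libraries, 26.0, 20.2 and 28.2 at P6 and 571, 519 and 779.8 in adult controls. Every P6 library lay far below every adult library, while stabilized beta-catenin library 1 fell inside the adult control range and the other two below it. The log2 fold change of P6 against adult control was -4.59 (SE 0.21, limma adjusted p = 1.13e-06). In bulk ventricle, fewer cells of a type and less RNA per cell cannot be told apart. The cardiomyocyte markers were lower at P6 in 8 of 12 cases and higher in none, with a median log2 fold change of -0.79, and their part in the lower Adra1a, Chrm2 and Pde4d counts was not tested.

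Adra1b, the gene of the alpha1B-adrenergic receptor, had 412, 406 and 488 normalised counts in the stabilized beta-catenin libraries, 573, 578 and 640.1 at P6 and 677, 380.1 and 342 in adult controls. The adult control range enclosed the P6 values because adult control 1 was high. P6 against adult control gave a log2 fold change of 0.42 (SE 0.23, adjusted p = 0.147). Without adult control 1 it was 0.72 (adjusted p = 7.78e-05), and without adult control 3 it was 0.23 (adjusted p = 0.431). With the same test, the 2 alpha1 receptor subtypes thus stood on different sides of the threshold in the full set of libraries, Adra1a lower and Adra1b not called.

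Adrb1 encodes the beta1-adrenergic receptor, the main cardiac receptor for noradrenaline. It had 309, 353 and 407 normalised counts in the stabilized beta-catenin libraries, 502, 448 and 515 at P6 and 485, 354 and 286 in adult controls. Adult control 1 lay inside the P6 range, and the rest of its group below it. The log2 fold change of P6 against adult control was 0.41 (SE 0.19, adjusted p = 0.0866). It was 0.61 without adult control 1 (adjusted p = 8.24e-04) and 0.23 without adult control 3 (adjusted p = 0.286).

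Chrm2 encodes the muscarinic M2 receptor. It had 1531, 1463 and 1428 normalised counts in the stabilized beta-catenin libraries, 413, 377 and 411 at P6 and 1759.8, 1587 and 1761 in adult controls. The 3 groups did not overlap, with P6 lowest and adult control highest. P6 against adult control gave a log2 fold change of -2.09 (SE 0.11, adjusted p = 2.16e-06). In the GENCODE M21 annotation a transcript on the opposite strand, 9330158H04Rik, shares 142 exonic bases with Chrm2. It had 76.2, 65.9 and 65.2 normalised counts in the stabilized beta-catenin libraries, 24.7, 21.7 and 20.8 at P6 and 140.0, 108 and 112 in adult controls. Whether counting used strand is not given in the sources used here, so reads over the shared bases cannot be assigned to one of the pair. Adcy6 shares 605 exonic bases with Gm29331, and Pde3a 741 with Gm28523, both on the opposite strand. Neither of these transcripts is a row of the count table, so whether their reads were counted to Adcy6 and Pde3a is not known.

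**Figure D1:**
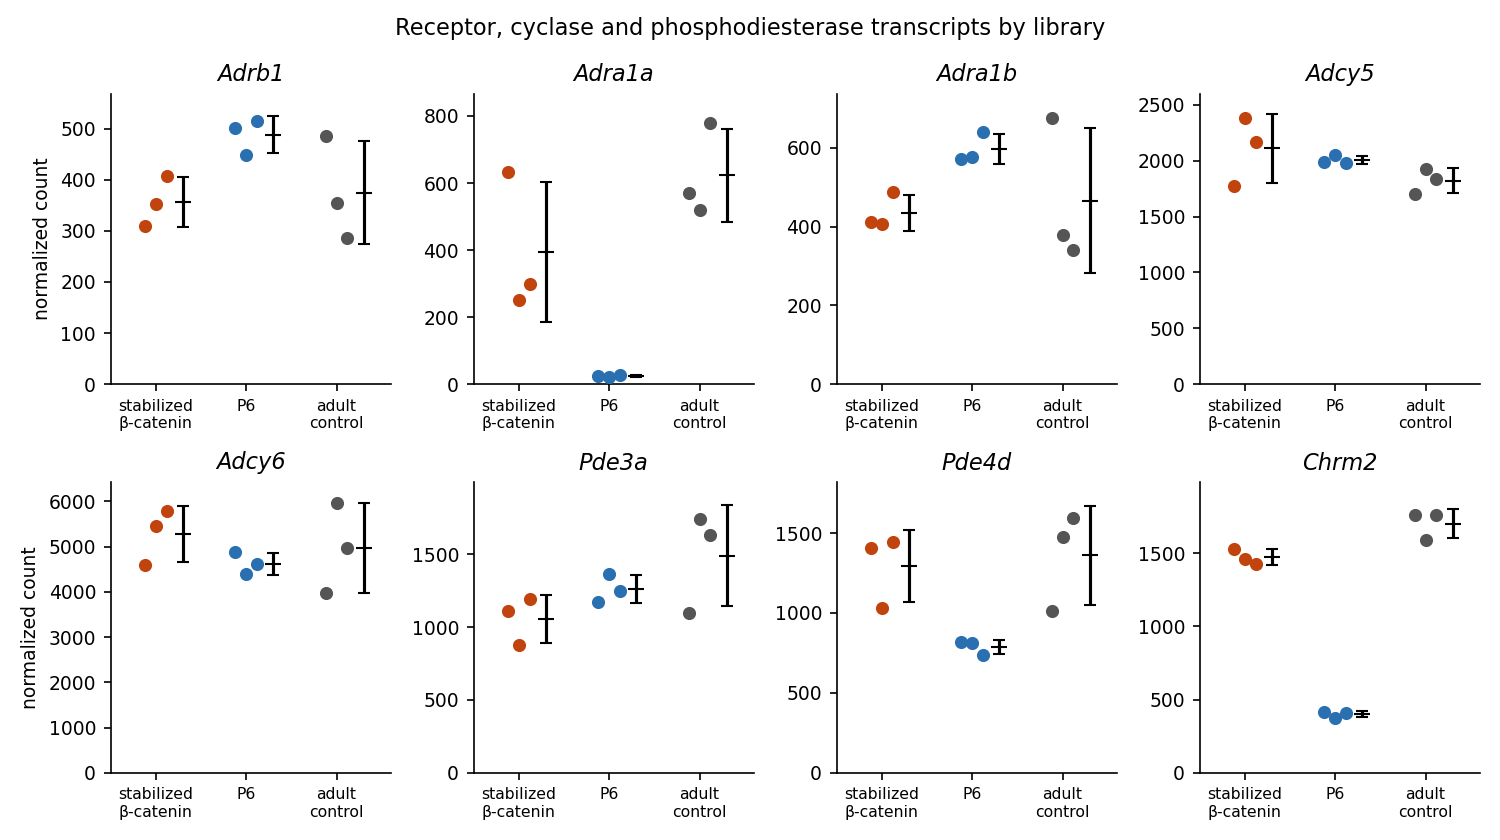
Normalised read counts of the 8 genes on a linear axis from 0, with one point per library and the mean ± SD (n = 3) beside them, in stabilized beta-catenin, P6 and adult control ventricles. Adra1a and Chrm2 are lowest at P6, where Adra1a averages 24.8 and Chrm2 400.4, and adult control 1 is the leftmost point of its group.

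Promoter sequences show what the start of one lower gene of each kind, a receptor and an enzyme, looks like beside that of a receptor that was not called in P6 against adult control. The windows come from RefSeq (GRCm38.p6) and run from 250 bases before a transcript start to 50 after it. A window was found for 5 of the 8 genes. The 3 shown are Chrm2 at chr6:36387834-36388133, Pde4d at chr13:108653927-108654226 and Adrb1 at chr19:56721867-56722166, all on the plus strand and written 5′ to 3′. Capitals mark the matches to 5 motifs searched on both strands.
Chrm2: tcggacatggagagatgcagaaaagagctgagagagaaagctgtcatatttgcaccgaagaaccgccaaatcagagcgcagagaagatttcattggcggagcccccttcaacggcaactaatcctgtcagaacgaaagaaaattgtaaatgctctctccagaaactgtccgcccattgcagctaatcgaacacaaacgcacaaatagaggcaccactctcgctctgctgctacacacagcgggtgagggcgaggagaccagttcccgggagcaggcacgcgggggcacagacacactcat
Pde4d: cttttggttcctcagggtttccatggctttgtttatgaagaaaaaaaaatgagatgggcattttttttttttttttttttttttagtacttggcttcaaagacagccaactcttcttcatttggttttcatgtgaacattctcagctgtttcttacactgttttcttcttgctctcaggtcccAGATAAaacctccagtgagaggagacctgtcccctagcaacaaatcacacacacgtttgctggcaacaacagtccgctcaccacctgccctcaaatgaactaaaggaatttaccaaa
Adrb1: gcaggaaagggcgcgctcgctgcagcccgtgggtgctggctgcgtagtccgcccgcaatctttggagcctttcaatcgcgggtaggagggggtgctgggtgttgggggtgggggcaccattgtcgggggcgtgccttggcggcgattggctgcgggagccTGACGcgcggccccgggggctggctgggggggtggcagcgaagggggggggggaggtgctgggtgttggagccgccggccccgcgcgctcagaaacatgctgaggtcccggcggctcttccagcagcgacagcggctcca
The cyclic AMP response element TGACGTCA occurs in 1.79% of 32851 windows of this length and its core TGACG, which lies within it, in 20.8%. The TCF/LEF motif CTTTGAT occurs in 3.73%, the GATA motif AGATAA in 11.2% and the nuclear receptor element AGGTCA in 16.3%. Adrb1 held one TGACG, at base 161 of its window, and Pde4d one AGATAA, at base 184. The Chrm2 window held no match to any of the 5, which says only that these letters are not in this window. No match was found in the windows of Adra1b and Adcy5 either, which are not shown. GC content was 52.7% in the Chrm2 window, 39.7% in that of Pde4d and 72.3% in that of Adrb1.

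Adcy5 and Adcy6 encode the 2 main adenylyl cyclases of heart muscle, both inhibited by calcium. Adcy5 had 1776, 2384 and 2166 normalised counts in the stabilized beta-catenin libraries, 1991, 2049 and 1975 at P6 and 1701, 1923 and 1832 in adult controls. All 3 P6 libraries lay above the 3 adult controls, by little, and inside the stabilized beta-catenin range. P6 against adult control gave a log2 fold change of 0.14 (95% interval -0.10 to 0.39, adjusted p = 0.279). Adcy6 had 4582, 5455 and 5784 normalised counts in the stabilized beta-catenin libraries, 4871, 4384 and 4614 at P6 and 3970.4, 5958 and 4978 in adult controls. All 3 groups overlapped. Its log2 fold change of P6 against adult control was -0.09 (95% interval -0.45 to 0.28, adjusted p = 0.663), and with quantile normalization it was 0.49 (adjusted p = 0.0167).

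Pde3a and Pde4d encode phosphodiesterases that break down cyclic AMP, the first inhibited by cyclic GMP. Pde4d had 1404, 1034 and 1447 normalised counts in the stabilized beta-catenin libraries, 818, 809 and 738 at P6 and 1012, 1475 and 1597 in adult controls. Every P6 library lay below every adult library of either genotype. P6 against adult control gave a log2 fold change of -0.76 (SE 0.17, adjusted p = 0.00461), which with scaling to total counts was -0.33 (adjusted p = 0.0806). Pde3a had 1108, 875 and 1192 normalised counts in the stabilized beta-catenin libraries, 1173, 1364 and 1249 at P6 and 1095, 1739.9 and 1632 in adult controls. Adult control 1 lay below all 3 P6 libraries and the other two adult controls above them. Its log2 fold change of P6 against adult control was -0.21 (SE 0.18, adjusted p = 0.326), against -0.42 (adjusted p = 0.00179) without adult control 1, -0.09 without adult control 2 and -0.13 without adult control 3.

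The scaling matters for genes with small differences. Scaling to total counts moved the median over the whole table in P6 against adult control to a log2 fold change of 0.44, and the calls over all genes to 6390 higher and 2316 lower, in place of 4182 and 4198. With that scaling Adra1a and Chrm2 were called lower, as without it, while Adrb1 at 0.84, Adra1b at 0.85 and Adcy5 at 0.57 were then called higher.

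Between stabilized beta-catenin and adult control ventricles, none of the 8 genes passed the limma test. The genes with the largest differences were Adra1a, which averaged 394 ± 209 normalised counts in stabilized beta-catenin and 623 ± 138 in adult control libraries, and Pde3a, which averaged 1058 ± 164 in stabilized beta-catenin and 1489 ± 346 in adult control libraries (SD, n = 3 each). Background was low here, with 1.80% of 12971 genes called. Of the 8 genes, 2 had an unadjusted p under 0.05, against 12.8% of all genes, and neither edgeR, which called 1.96% of all genes, nor DESeq2, which called 3.97%, called any. The median log2 fold change was -0.05 over the 8 genes and -0.00 over all genes tested.

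Adra1a had a log2 fold change of -0.76 in stabilized beta-catenin against adult control (95% interval -1.52 to -0.00, adjusted p = 0.388). Its counts ranged widely in the mutant group, and stabilized beta-catenin library 1, the highest, was also the library with the highest Y-linked sum. Stabilized beta-catenin libraries 2 and 3, with unlike Y-linked sums of 2.57 and 2742, had like Adra1a counts of 249.9 and 299. Without library 1 of the mutant group the log2 fold change was -1.16 (adjusted p = 0.0605) and without library 2 it was -0.49 (adjusted p = 0.819). With Y-linked expression as a covariate it was -1.37 (adjusted p = 0.372). No adult control had a Y-linked sum above 3.33, so this fit cannot well separate the covariate from genotype. Pde3a gave -0.48 (95% interval -0.95 to -0.01, adjusted p = 0.381), and -0.68 (adjusted p = 0.0482) without adult control 1. Chrm2 was the only one of the 8 whose libraries did not overlap between these groups, a pattern seen in 19.0% of all genes tested. It averaged 1474 ± 52.0 normalised counts in stabilized beta-catenin and 1703 ± 100.1 in adult control libraries, a log2 fold change of -0.21 (95% interval -0.47 to 0.06, adjusted p = 0.546). The other 5 genes had log2 fold changes between -0.06 for Pde4d and 0.20 for Adcy5. Their intervals reached down to -0.61 and up to 0.54, so differences up to that size were not excluded with 3 libraries a group.

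**Figure D2:**
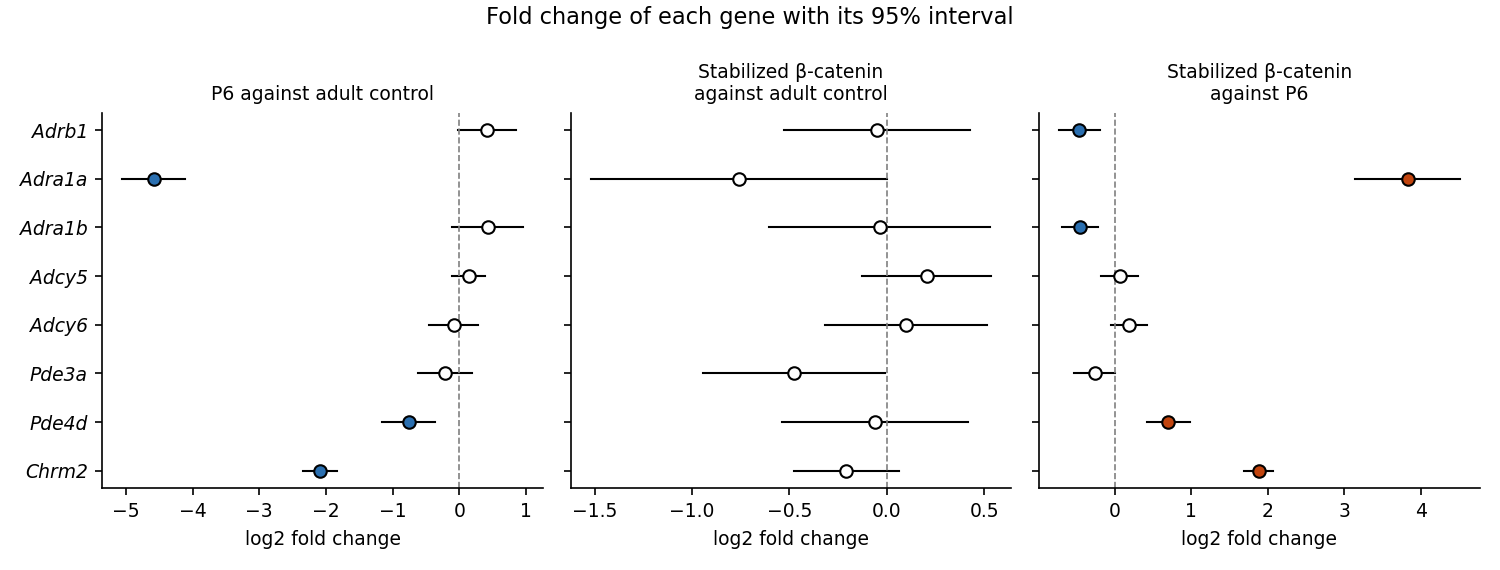
Log2 fold change of each gene on the log2(normalised count + 1) scale with its 95% interval from limma, in the 3 comparisons, with a separate horizontal scale in each panel. Filled points have an adjusted p under 0.05: Adra1a, Pde4d and Chrm2 in P6 against adult control, none in stabilized beta-catenin against adult control, and 5 genes in stabilized beta-catenin against P6.

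Stabilized beta-catenin ventricles differed from P6 ventricles in 5 of the 8 genes. Adra1a, Chrm2 and Pde4d were higher in the adult mutant, and Adrb1 and Adra1b lower, where 72.3% of 13367 genes tested were called, 36.5% higher and 35.8% lower. Both adult groups were compared with the same P6 libraries, and both groups differ from P6 in age. Adra1a had a log2 fold change of 3.82 (SE 0.31, adjusted p = 2.29e-06), or 14.2-fold. Chrm2 had one of 1.88 (SE 0.08, adjusted p = 1.06e-07), or 3.68-fold, and Pde4d one of 0.70 (SE 0.13, adjusted p = 0.000600), or 1.62-fold. With total-count scaling the Pde4d value was 0.29 and its call was lost (adjusted p = 0.0989). Adrb1 and Adra1b were 1.38-fold and 1.37-fold lower, with log2 fold changes of -0.46 (SE 0.12, adjusted p = 0.00563) and -0.46 (SE 0.10, adjusted p = 0.00259). The Adra1b call was lost with all groups in 1 fit (adjusted p = 0.0826). Adcy5 at 0.06 (95% interval -0.18 to 0.30) and Adcy6 at 0.18 (95% interval -0.05 to 0.42) were not called, and neither was Pde3a at -0.26 (adjusted p = 0.0707). Adcy6 was called without stabilized beta-catenin library 1, at 0.28. Pde3a was called as lower in 4 of 20 alternatives, 1 of them without stabilized beta-catenin library 3, at -0.36. Over the 20 alternatives the Pde3a value ran from -0.67 to -0.13, the latter without stabilized beta-catenin library 2. Adcy5 turned to -0.35 with total-count scaling (adjusted p = 0.0244) and Adcy6 to -0.41 with quantile normalization (adjusted p = 0.00934), so no direction is given for either cyclase. Groups did not overlap in 5 of the 8 genes, against 77.0% of all genes tested, and the median log2 fold change was 0.12 over the 8 and 0.00 over all genes.

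Ratios of genes within a library do not depend on the scaling between libraries. Pairs of genes with opposed or parallel roles were described after their values were seen, so none was tested. Reads of Chrm2 per read of Adrb1 were 4.96, 4.15 and 3.51 in the stabilized beta-catenin libraries, 0.822, 0.842 and 0.798 at P6 and 3.63, 4.49 and 6.16 in adult controls. M2 receptor reads were thus fewer than beta1 receptor reads in every P6 library and outnumbered them in every adult library. Reads of Adra1a per read of Adra1b were 1.54, 0.616 and 0.612 in the stabilized beta-catenin libraries, 0.0455, 0.0350 and 0.0441 at P6 and 0.844, 1.36 and 2.28 in adult controls. The P6 libraries stood apart, and the adult groups overlapped. These ratios are not corrected for length. Annotated exons span 6053 bases in Chrm2 and 8728 in Adra1a, but 3382 in both Adrb1 and Adra1b. Adult control 1, in which long genes were low, had the lowest ratio of its group in both pairs.

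Reads of Pde3a per read of Pde4d separated all 3 groups. The ratio was 0.789, 0.846 and 0.824 in the stabilized beta-catenin libraries, 1.43, 1.69 and 1.69 at P6 and 1.08, 1.18 and 1.02 in adult controls. On the log2 scale it averaged -0.29 ± 0.05 in stabilized beta-catenin, 0.68 ± 0.14 in P6 and 0.13 ± 0.10 in adult control libraries (SD, n = 3 each). Pde4d reads outnumbered those of Pde3a in every mutant library and were outnumbered in every other library, adult control 1 included. The transcript models of these genes are of like length, 12737 exonic bases for Pde3a and 12006 for Pde4d. Log2 ratios of Adcy5 to Adcy6 were -1.33 ± 0.12 in stabilized beta-catenin, -1.20 ± 0.10 in P6 and -1.43 ± 0.20 in adult control libraries, and all 3 groups overlapped.

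**Figure D3:**
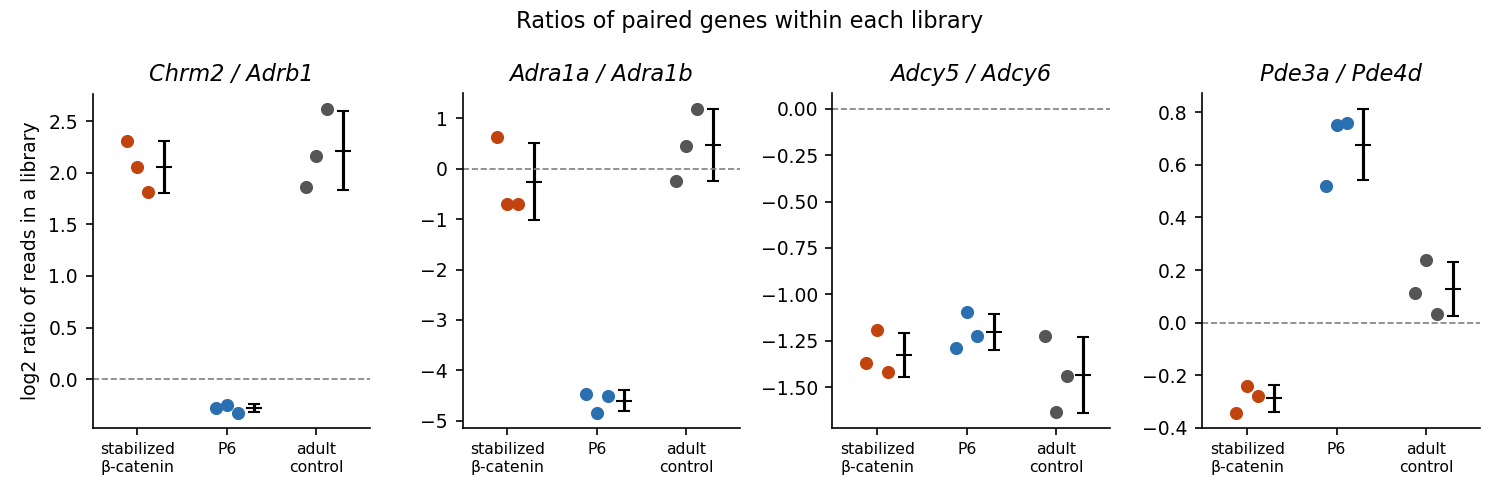
Log2 ratio of the reads of 2 genes within each library, with one point per library and the mean ± SD (n = 3) beside them. For Pde3a over Pde4d the groups lie apart, at -0.29 in stabilized beta-catenin, 0.68 at P6 and 0.13 in adult control; for Chrm2 over Adrb1 only P6, at -0.29, lies below 0.

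Levels can be compared between genes only per length. Per kilobase of annotated exon, Adcy6 was the highest of the 8 in each group, with a mean of 778 normalised counts in stabilized beta-catenin, 682 in P6 and 733 in adult control. Adcy5 was next at P6, with 279, and averaged 294 in stabilized beta-catenin and 253 in adult control, where Chrm2 averaged 281. Chrm2 per kilobase was 244 in stabilized beta-catenin and 66.1 at P6, so that at P6 it stood beside Pde4d at 65.7. Adra1a was the lowest of the 8 in each group, at 45.1 in stabilized beta-catenin, 2.84 at P6 and 71.4 in adult control. Adra1b at 129, 177 and 138 and Adrb1 at 105, 144 and 111, in the same order of groups, ran in parallel, with the higher mean for Adra1b in each. Pde3a averaged 83.1 in stabilized beta-catenin, 99.1 in P6 and 117 in adult control, and Pde4d 108 in stabilized beta-catenin and 113 in adult control.

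Likeness of profiles was measured as the root-mean-square difference of log2 values, each centred on its own mean over the 9 libraries, against 9696 genes. The gene nearest to Adra1b was Adrb1, at 0.11, followed by Hmgn1 at 0.12. Adrb1 itself was nearest to Zfp263 at 0.092 and Tor1a at 0.093. Many genes lay near both receptors, with 10.4% of those searched closer than 0.3 to Adra1b and 16.4% to Adrb1. Chrm2 was nearest to Ap4s1 at 0.094 and Dhdh at 0.10, and Pde4d to Ank2 at 0.078 and Spop at 0.10. Adra1a had no close neighbour, the nearest being Ogdhl at 0.31 and Ldhd at 0.37. The nearest genes were Noc3l at 0.070 and Rin2 at 0.083 for Adcy5, Cuedc1 at 0.078 and Cdyl2 at 0.080 for Adcy6, and Furin at 0.099 and Pacs2 at 0.11 for Pde3a. With small differences between groups, as in the cyclases, a short distance says little beyond flatness.

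The other genes of the pathway were 130 in 9 lists by role. Of 114 tested in P6 against adult control, 37 were higher and 35 lower, or 63.2%, beside 62.5% of all genes, with a median log2 fold change of 0.05. In stabilized beta-catenin against adult control 0 of 111 were higher and 2 lower, or 1.80%, the same share as over all genes. An unadjusted p under 0.05 was more frequent in the lists, with 26 of 111 or 23.4% against 12.8% of all genes, and so were groups that did not overlap, with 36 of 111 or 32.4% against 19.0%. These shares were not tested against each other. In stabilized beta-catenin against P6, 38 of 113 were higher and 43 lower, or 71.7%, beside 72.3% of all genes. The counts by role below can be read against the 31.2% of all genes higher and 31.3% lower in P6 against adult control. Named here are called genes with the largest fold changes in their list among those with a mean of at least 50 normalised counts.

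The genes that make, take up and break down the transmitters included the largest fold changes of the lists at P6 against adult control. Ddc, the decarboxylase that makes dopamine, averaged 108 ± 6.49 normalised counts in stabilized beta-catenin, 832 ± 192 in P6 and 91.7 ± 34.9 in adult control libraries, a log2 fold change of 3.20 in P6 against adult control (adjusted p = 2.05e-05). Slc22a3, a low-affinity transporter that clears catecholamines, averaged 216 ± 56.4 in stabilized beta-catenin, 4.76 ± 3.64 in P6 and 130.4 ± 16.7 in adult control libraries, with -4.72 in P6 against adult control (adjusted p = 3.68e-05). Maob, which oxidises amines, averaged 828 ± 236 in stabilized beta-catenin, 66.1 ± 26.2 in P6 and 679.8 ± 78.8 in adult control libraries, with -3.42 in P6 against adult control. Of 10 genes tested in this list, 2 were higher and 3 lower at P6 against adult control. Th, the first enzyme of noradrenaline synthesis, did not exceed 1.49 normalised counts in any library, and Chat, which makes acetylcholine, had 0 reads in all 9. Glial and neuronal markers summed to 580 to 726 normalised counts in stabilized beta-catenin, 1889 to 2308 in P6 and 478 to 704 in adult control libraries. The single markers did not share the direction of the sum. Of 7 tested in P6 against adult control, 2 were higher and 3 lower, with a median log2 fold change of -0.02. The part of these markers in the values of the transmitter genes was not tested.

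Among the other receptors, 4 of 10 were tested. Adra2b, an alpha2 receptor, averaged 34.5 normalised counts in stabilized beta-catenin, 17.2 in P6 and 48.7 in adult control libraries and was lower at P6 against adult control (log2 fold change -1.43, adjusted p = 0.00318). Chrm3, the muscarinic M3 receptor, averaged 13.1 in stabilized beta-catenin, 25.7 in P6 and 11.0 in adult control libraries and was higher at P6 (1.13, adjusted p = 0.0258), a call kept in 13 of 19 alternatives. It was lost with quantile normalization, at 0.62 (adjusted p = 0.165), with the Y-linked covariate, with thinned adult reads, and without P6 library 1, P6 library 3 or adult control 3, at 0.93, 1.04 and 0.94.

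Of 16 G protein subunit genes, 8 were higher and 3 lower at P6 against adult control, where 31.2% of all genes were higher and 31.3% lower. Gnai1, an inhibitory alpha subunit, averaged 94.6 ± 15.3 normalised counts in stabilized beta-catenin, 244 ± 10.6 in P6 and 78.4 ± 11.2 in adult control libraries, a log2 fold change of 1.63 in P6 against adult control (adjusted p = 3.99e-05). The beta subunit gene Gnb4, at 1.15, and the gamma subunit gene Gng2, at 1.04, were also higher. Gnas, the stimulatory alpha subunit that couples beta receptors to the cyclases, averaged 10332 in stabilized beta-catenin, 10722 in P6 and 10392 in adult control libraries.

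Of the other cyclases and their associated proteins, 3 of 9 were higher and 4 lower at P6 against adult control. Adcy1, a cyclase stimulated by calcium and calmodulin, averaged 74.6 ± 29.0 normalised counts in stabilized beta-catenin, 35.8 ± 2.57 in P6 and 145 ± 41.4 in adult control libraries (log2 fold change of P6 against adult control -1.95, adjusted p = 1.64e-04). Adcy9 gave -1.02 in P6 against adult control and 1.04 in stabilized beta-catenin against P6. Cap2, which binds actin and is no cyclase, gave -0.89 in P6 against adult control.

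The other phosphodiesterase genes split, with 6 of 16 higher and 5 lower at P6 against adult control. Pde7a averaged 1062 ± 145 normalised counts in stabilized beta-catenin, 378 ± 29.4 in P6 and 959 ± 295 in adult control libraries, with a log2 fold change of -1.29 in P6 against adult control. Pde10a was higher at P6 against adult control, at 1.23, and lower in stabilized beta-catenin against P6, at -1.82. Pde4dip, which encodes a protein that binds PDE4D and is no enzyme of this kind, gave -1.46 in P6 against adult control. Pde1b gave -1.58 in stabilized beta-catenin against P6.

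Pde1c and Lipe were the only listed pathway genes called between the adult groups by limma. Pde1c, a phosphodiesterase activated by calcium and calmodulin, had 1066, 1092 and 892 normalised counts in stabilized beta-catenin, 1938, 1889 and 1996 in P6 and 1943, 2011 and 2700.2 in adult control libraries. Every mutant library lay below every library of the other groups. It was 2.16-fold lower in stabilized beta-catenin than in adult control (log2 fold change -1.11, SE 0.16, adjusted p = 0.0154) and also lower than in P6 (-0.94, adjusted p = 1.15e-05). P6 against adult control gave -0.18 (adjusted p = 0.314). Lipe, the hormone-sensitive lipase that protein kinase A activates, had 339.8, 298 and 316 normalised counts in stabilized beta-catenin, 679.8, 676 and 594 in P6 and 579, 652 and 575 in adult control libraries. Its log2 fold change was -0.92 in stabilized beta-catenin against adult control (SE 0.13, adjusted p = 0.0123) and -1.03 against P6. Adipocyte markers summed to 4162 to 4748 normalised counts in stabilized beta-catenin, 4433 to 5238 in P6 and 5123 to 6092 in adult control libraries. These sums rest on few genes. Only 1 of the 6 markers had enough counts to be tested in each comparison. Adipoq, Plin1, Cidec and Cfd had 0 counts in every P6 library. The part of adipocyte markers in the Lipe value was not tested. Neither call was kept with Y-linked expression as a covariate, nor without stabilized beta-catenin library 2, stabilized beta-catenin library 3 or adult control 3. That covariate is partly confounded with genotype, since no adult control had a Y-linked sum above 3.33. Over the 20 alternatives the adjusted p reached 0.14 for Lipe and 0.261 for Pde1c, while the log2 fold changes stayed between -1.01 and -0.84 for Lipe and between -1.20 and -0.96 for Pde1c.

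Protein kinase A, its anchors and Epac proteins had 4 of 20 genes higher and 7 lower at P6 against adult control. Pkia, an inhibitor of protein kinase A, averaged 4796 ± 1865 normalised counts in stabilized beta-catenin, 998 ± 98.6 in P6 and 4559.5 ± 1021 in adult control libraries (log2 fold change of P6 against adult control -2.17, adjusted p = 1.52e-05). Rapgef4, the cyclic AMP sensor Epac2, averaged 627 ± 66.7 in stabilized beta-catenin, 155 ± 26.1 in P6 and 657 ± 45.2 in adult control libraries (-2.08, adjusted p = 9.66e-06). The anchor gene Akap12 went the other way, at 1.35, and Akap5 gave -1.78 in stabilized beta-catenin against P6.

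Receptor kinases, arrestins and RGS proteins, which end receptor signalling, had 5 of 14 genes higher and 4 lower at P6 against adult control. Adrbk2, the receptor kinase GRK3, averaged 340.2 ± 56.9 normalised counts in stabilized beta-catenin, 769 ± 93.2 in P6 and 296 ± 22.8 in adult control libraries (1.37, adjusted p = 4.55e-05). Rgs3 gave 1.09 and Rgs2 -1.16 (adjusted p = 0.0114) in the same comparison, the second of which was lost with total-count scaling. Rgs2 had 868, 528 and 767 normalised counts in stabilized beta-catenin, 358, 415 and 361 in P6 and 1545, 626 and 616 in adult control libraries, and without the high adult control 1 its log2 fold change was -0.72 (adjusted p = 9.42e-05). Grk6 gave -1.10 in stabilized beta-catenin against P6.

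The arm downstream of alpha1 receptors had 7 of 13 genes higher and 1 lower at P6 against adult control, where 31.2% of all genes were higher and 31.3% lower. The inositol trisphosphate receptor genes Itpr2 and Itpr1 had log2 fold changes of 1.20 and 0.93 in P6 against adult control, and Itpr3 one of -1.30 in stabilized beta-catenin against P6. Prkcb, a protein kinase C gene, was lower at P6, at -0.91, a call that was lost with total-count scaling. Endothelial markers summed to 14664 to 18143 normalised counts in stabilized beta-catenin, 25665 to 30045 in P6 and 16249 to 23436 in adult control libraries, and fibroblast markers to 44515 to 52454, 71465 to 90274 and 35094 to 43748 in the same order of groups. The single markers were not uniform. In P6 against adult control 8 of 12 endothelial markers were higher and 2 lower, and 6 of 12 fibroblast markers were higher and 2 lower. The part of these markers in the higher G protein and alpha1 arm counts at P6 was not tested.

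Substrates of protein kinase A and the muscarinic potassium channel genes had 1 of 12 genes higher and 7 lower at P6 against adult control, where 31.2% of all genes were higher and 31.3% lower. The median log2 fold change of the list was -0.59, beside 0.02 for all genes. Kcnj3, a subunit of the channel that M2 receptors open, had 2579, 1134 and 1568 normalised counts in stabilized beta-catenin, 406, 334 and 285 in P6 and 2181, 1819 and 2221 in adult control libraries. As with Chrm2, every P6 library lay below every adult library, with a log2 fold change of P6 against adult control of -2.61 (adjusted p = 3.46e-06). Its partner subunit Kcnj5 averaged 1863 in stabilized beta-catenin, 1487 in P6 and 1905 in adult control libraries (-0.36, adjusted p = 0.0152), but this call was lost without any 1 of the 3 P6 libraries, at -0.37 to -0.34, and with total-count scaling, at 0.07. Kcnj3 is strong in atrial muscle. Atrial markers summed to 869 to 12831 normalised counts in stabilized beta-catenin, 1766 to 1868 in P6 and 2004 to 8117 in adult control libraries. The single markers did not follow this sum. Of 5 tested, 2 were higher and 1 lower in P6 against adult control (median log2 fold change 0.86). In stabilized beta-catenin against P6, 0 were higher and 3 lower (median -0.85). The part of atrial markers in the Kcnj3 and Kcnj5 values was not tested. Pln, the phospholamban gene, and Tnni3, cardiac troponin I, gave -1.81 and -1.82 in P6 against adult control and 1.78 and 1.60 in stabilized beta-catenin against P6. Both are also on the cardiomyocyte marker list.

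**Figure D4:**
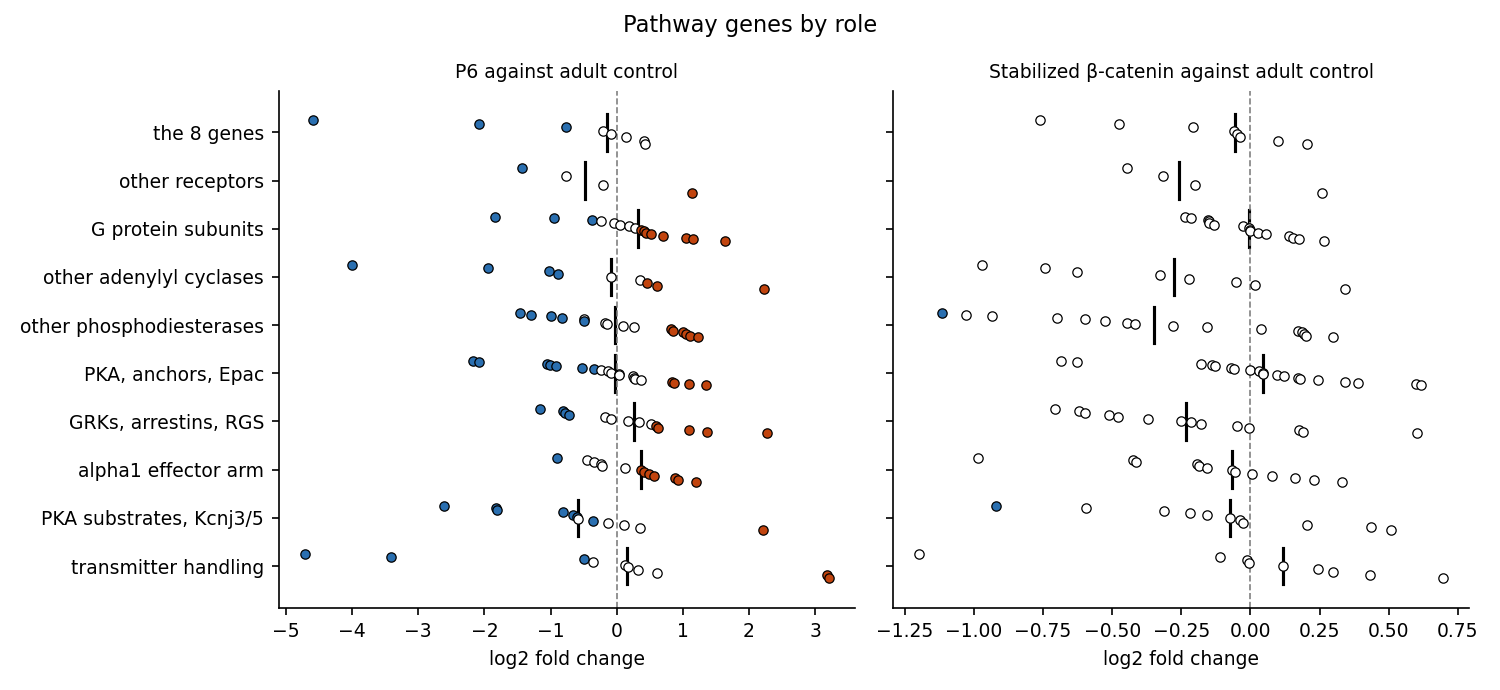
Log2 fold change on the log2(normalised count + 1) scale of each listed pathway gene tested, one point per gene, grouped by role, in P6 against adult control and in stabilized beta-catenin against adult control, with the 8 genes in the top row, vertical bars at the medians, a separate scale in each panel and filled points at an adjusted p under 0.05. Between the adult groups 2 points, Pde1c and Lipe, are filled, and Slc22a3 is the lowest point in P6 against adult control, at -4.72.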

How the data were processed

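RNA sequencing libraries of mouse ventricles, 3 per group, were read from one table of normalised counts of all 9 libraries and a raw count file for each of the 3 P6 libraries. Per the submitters' processing notes, reads were aligned to mm9 with Bowtie2 2.0 and DESeq2 was used; per the file headers, htseq-count counted the reads. The annotation and strand setting are not given in the sources used here. The normalised signal values deposited by the authors, counts divided by size factors, gave back whole reads for 100% of values (within 0.001), and these equalled the deposited raw counts of P6 for 24364 gene names. Another 27 names, altered to dates, were not matched. The repeat ribosomal gene Rn45s took 0.378% to 8.40% of reads. The authors' other 4 sheets were not used.

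Genes with at least 10 normalised counts in at least 3 of the 6 libraries compared were tested with limma 3.58.1 (R 4.3.3), with an intensity trend, two-sided, on log2(normalised count + 1), which understates the change of low genes. P-values were adjusted by Benjamini-Hochberg over all genes tested, at a threshold of 0.05. For a single gene an exact permutation test of 3 against 3 libraries cannot go below p = 0.1. The scripts were tested on simulated data. Replicates differed beyond sampling noise in every group (chi-square per degree of freedom 5.08 to 144). Alternatives, 20 per comparison, were edgeR 4.0.16, DESeq2 1.42.0 (both fitted to the recovered reads), other pseudocounts, filters, scalings and fits and leaving out each library. Y-linked covariate and thinned adult reads were added after seeing the data. In comparisons with adult control the Y-linked covariate is partly confounded with group, since no adult control had a Y-linked sum above 3.33. Members and lists were chosen with earlier results of these data known.

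Named pathway genes are up to 3 called genes of each list with the largest absolute log2 fold change, at a mean of at least 50 normalised counts over the 2 groups. The receptors below that mean, and Gnas, Kcnj5, Th and Chat, were named after their values were seen. Likeness used genes with a mean of at least 100 normalised counts. Exon lengths are from GENCODE M21, not the counting annotation. Marker lists covered cardiomyocytes, atrial muscle, fibroblasts, endothelium, smooth muscle and pericytes, macrophages, glia and neurons, and adipocytes. Smooth muscle and pericyte markers summed to 55270 to 59384 normalised counts in stabilized beta-catenin, 35602 to 38762 in P6 and 52920 to 59101 in adult control libraries. Macrophage markers summed to 3504 to 4202, 1197 to 1343 and 3386 to 5570 in the same order of groups. The single smooth muscle and pericyte markers did not follow their sum. Of 12 tested, 4 were higher and 4 lower in P6 against adult control (median log2 fold change 0.20). In stabilized beta-catenin against P6, 4 were higher and 8 lower (median -1.04).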

Additional observations from a re-analysis of the deposited data

How the results depend on the processing

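In P6 against adult control, Adra1a and Chrm2 were called in all 20 alternatives and Pde4d in 19, the exception being total-count scaling. Total-count scaling gave 6390 genes higher, 2316 lower, 3 of the 8 genes higher and 20 pathway genes lower. Quantile normalization gave 2 of the 8 higher and turned Adcy6 to 0.49. Kcnj5 turned to 0.0715 with total-count scaling and had an adjusted p of 0.0597 with the replicate block. Leaving out 1 library gave 0 to 2 of the 8 higher, 3 to 4 lower, 3079 to 4579 genes higher and 3563 to 4450 lower.

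In stabilized beta-catenin against adult control, 193 genes higher and 40 lower became 124 higher with a filter of 50 counts, 339 and 176 with DESeq2 (1 pathway gene higher), 333 and 161 with all groups in 1 fit (2 pathway genes higher), and 28 and 10 with the Y-linked covariate (0 pathway genes lower). Leaving out 1 library gave 25 to 259 higher, 2 to 138 lower, 0 to 1 of the 8 lower, 0 to 1 pathway genes higher and 0 to 2 lower. The fewest calls came without stabilized beta-catenin library 3 and the most lower ones without adult control 1. Calls with the Y-linked covariate are limited by its overlap with genotype in this comparison.

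In stabilized beta-catenin against P6, total-count scaling gave 2945 genes higher, 4 of the 8 lower and 24 pathway genes higher, and turned Adcy5 to -0.35. Quantile normalization gave 4 of the 8 lower and turned Adcy6 to -0.41. All groups in 1 fit left 1 of the 8 lower, Adra1b having an adjusted p of 0.0826. Total-count scaling also shifted the median over all genes in both comparisons with P6, and the reduced fits had fewer samples. The part of either in the changed calls was not tested, nor was any other cause.

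Replicate numbers did not pair the libraries, with correlations of same-numbered deviations from -0.0848 to 0.0341 for P6 and adult control, -0.1199 to 0.1964 for stabilized beta-catenin and adult control, and -0.1027 to 0.1204 for stabilized beta-catenin and P6. The replicate block gave 66 genes lower in place of 40 in stabilized beta-catenin against adult control, and changed no call of the 8 genes in any comparison. P6 libraries held fewer reads, so low genes are the least precise there.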

Other observations

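Several receptors and transmitter genes had too few reads to test, and their summed reads over 3 libraries are given as values. Adra2c, an alpha2 receptor gene, had 23 reads in stabilized beta-catenin, 0 in P6 and 37 in adult control libraries. P6 libraries were the shallowest, and a count of 0 allows up to 3 reads a library. Slc5a7, the choline transporter of cholinergic nerve endings, had 0 reads in stabilized beta-catenin, 26 in P6 and 0 in adult control libraries, although P6 had the fewest reads in all. Chat and Slc18a3, 2 other cholinergic genes, had 0 reads in every library. Adrb3, the beta3 receptor gene, had 3 reads in stabilized beta-catenin, 2 in P6 and 1 in adult control libraries, and Chrm4, the muscarinic M4 receptor gene, had 10, 0 and 3 in the same order of groups.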
